A study of Mus musculus with 8 samples.

Results

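The interferon regulatory factors (IRFs) were followed as 8 genes of a deposited mouse RNA-seq count table, Irf1, Irf2, Irf3, Irf4, Irf5, Irf7, Irf8 and Irf9, taken by gene name out of 54532 rows. All 8 passed the filter on low counts that left 15009 genes for testing. The RNA came from bone marrow LSK cells, which lack lineage markers, carry Sca-1 and c-Kit, and hold the blood stem cells and earliest multipotent progenitors. There were 3 libraries from C57BL/6 mice of the genotype Runx1-Runx1t1, called AML1/ETO, and 5 from wild-type (WT) C57BL/6 control mice. AML1/ETO is the fusion protein of the t(8;21) translocation of acute myeloid leukaemia. Mice of both genotypes had received poly(I:C), a double-stranded RNA mimic, in 4 doses of 5 mg/kg given every other day, and were killed 4 weeks later. The sources used here do not give the promoter that drives the fusion, any Cre line, or the age of the mice. The cells were kept in DMEM with serum around the sort.

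IRFs are transcription factors that share a DNA-binding domain and recognise GAAA repeats in interferon-stimulated response elements. IRF3, IRF7 and IRF5 are switched on by kinases downstream of nucleic acid sensors and turn on interferon genes. IRF9 joins STAT proteins in ISGF3, the complex that carries the type I interferon signal to the nucleus. IRF1 is an activator induced by interferon gamma and NF-kappaB, and IRF2 competes with it for the same sites. IRF4 and IRF8 bind DNA weakly alone, pair with the ETS factor PU.1, and guide B cell, dendritic cell and monocyte development.

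The AML1/ETO libraries held 14693080 to 16433454 counted reads and the control libraries 16374232 to 17527043. Runx1t1, which encodes the ETO part of the fusion, matched the genotype labels, with 712 to 1971 reads per AML1/ETO library against 27 to 132 per control. The groups also differed in sex-linked RNA: Xist had 28559 to 33151 reads in AML1/ETO libraries against 0 to 111, and the Y-linked Ddx3y had none against 3688 to 5038, so that genotype and these markers cannot be told apart. No IRF gene studied here lies on X or Y. The sorting markers were both present in every library, Kit at 431 ± 38.0 CPM (SD, n = 5) in controls and 1386 ± 416 CPM (SD, n = 3) in AML1/ETO cells, and Ly6a (Sca-1) at only 15.0 ± 6.10 CPM in controls against 466 ± 395 CPM. CPM values are reads scaled to a common library size with TMM factors. In such bulk libraries, fewer cells of a type and less RNA per cell cannot be told apart. Whether each library came from its own animal is not stated, and the p-values therefore rest on a spread between libraries that may be technical.

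The family split. Irf1, Irf3 and Irf7 rose in AML1/ETO cells and Irf4, Irf5 and Irf8 fell, while Irf2 and Irf9 did not pass the test (edgeR quasi-likelihood test over all 15009 genes, Benjamini-Hochberg adjusted p under 0.05). Thus 6 of 8 members were called, against 25.7% of all tested genes. Of these 3 were higher, against 11.6% of all tested genes, and 3 lower, against 14.2%. In 6 of 8 members, all those called, the AML1/ETO libraries did not overlap the controls, as in 31.6% of all tested genes. The median log2 fold change was 0.34 over the 8 members and −0.09 over all tested genes, and the member median lies between groups of opposite sign. The largest fall was at least 163-fold (Irf4) and the largest rise 2.69-fold (Irf1). Irf2 also passed when AML1/ETO library 1 was left out (adjusted p = 0.00662, log2 fold change 0.89), and the Irf7 call was lost under several settings given with its values.

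**Figure D1:**
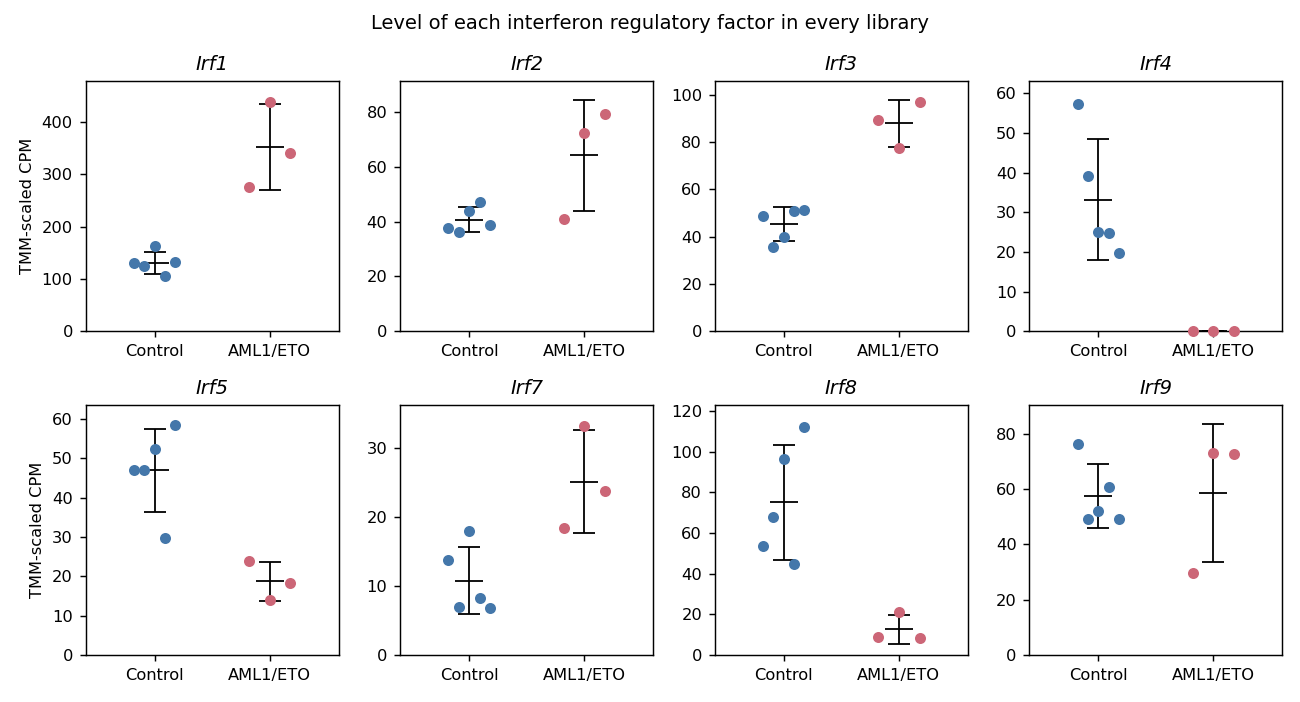
TMM-scaled CPM of each interferon regulatory factor (y axis, from 0) in the 5 control and 3 AML1/ETO libraries; each point is a library, and the bar shows the mean ± SD. Irf1, Irf3 and Irf7 sit higher and Irf4, Irf5 and Irf8 lower in all 3 AML1/ETO libraries, with Irf4 at 0, and Irf2 and Irf9 overlap.

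**Figure D2:**
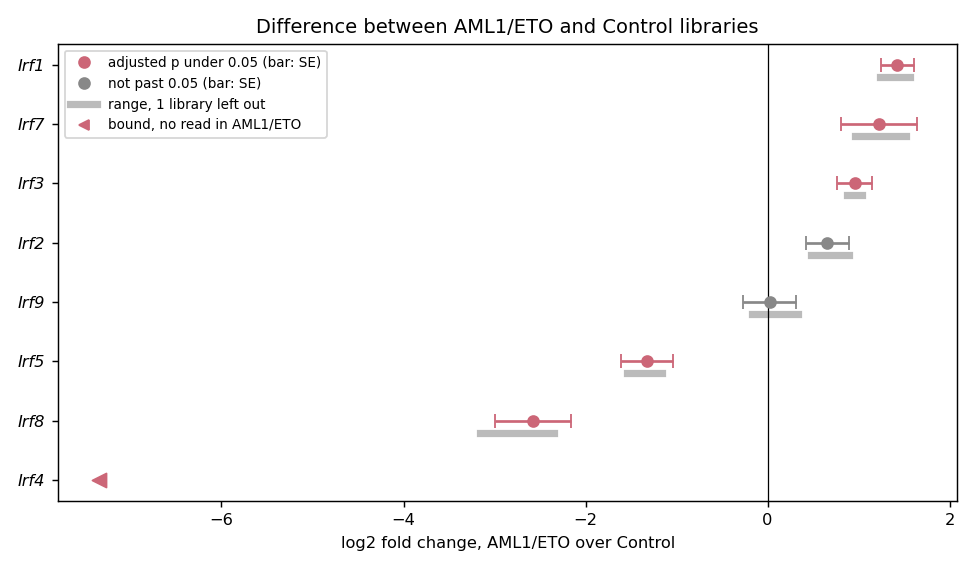
Fitted log2 fold change (AML1/ETO over control, x axis) of each member with its SE, red where the adjusted p is under 0.05, and the range of the value when any 1 library was left out (grey band). Irf4 is drawn at its bound of −7.35, since it had no read in an AML1/ETO library, and Irf9 lies at 0.02 with a band on both sides of 0.

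Irf1 (ENSMUSG00000018899, plus strand of chromosome 11, 53770014 to 53778374 in mm10) was the most abundant member. Its level was 276, 439 and 342 CPM in AML1/ETO libraries 1, 2 and 3, and 131, 125, 163, 105 and 132 CPM in controls 1 to 5. Every AML1/ETO library lay above the highest control. The means were 352 ± 82.0 CPM (SD, n = 3) and 131 ± 21.1 CPM (SD, n = 5), a log2 fold change of 1.43 (SE 0.18, edgeR adjusted p = 0.000203). Gm17334, a gene model on the other strand, shares 3.40% of the merged exon bases of Irf1, and the sources used here do not say whether counting used strand.

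Irf2 (ENSMUSG00000031627, plus strand of chromosome 8, 46739732 to 46847458) encodes the factor that competes with IRF1. It stood at 41.2, 72.5 and 79.3 CPM in AML1/ETO libraries 1 to 3 and at 37.8, 36.4, 43.9, 47.0 and 38.7 CPM in controls 1 to 5. AML1/ETO library 1 lay inside the control range and the other AML1/ETO libraries above it. The log2 fold change was 0.66 (SE 0.23, edgeR adjusted p = 0.0578). It passed with DESeq2 (adjusted p = 0.0259) and with limma-voom (0.0231). The ratio of Irf1 to Irf2 reads, which library scaling does not touch, was 6.71, 6.06 and 4.31 in AML1/ETO cells. In the controls it ran from 2.23 to 3.72, so the ranges did not overlap.

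The promoter windows of these antagonists are shown because both factors act on the same sites and both genes respond to interferon. Each window spans 250 bases before to 50 after a RefSeq start site (GRCm38.p6) and is written 5′ to 3′ on the gene's strand, chr11:53769764-53770063 for Irf1 and chr8:46739495-46739794 for Irf2. Capitals mark every match, on either strand, to 6 patterns. These are the interferon-stimulated response element core GAAANNGAAA, the gamma-activated site (GAS) TTCNNNGAA, the ETS-IRF composite GGAANNGAAA, the RUNX site TGTGGT, the TATA box TATAAA and the NF-kappaB consensus.
Irf1: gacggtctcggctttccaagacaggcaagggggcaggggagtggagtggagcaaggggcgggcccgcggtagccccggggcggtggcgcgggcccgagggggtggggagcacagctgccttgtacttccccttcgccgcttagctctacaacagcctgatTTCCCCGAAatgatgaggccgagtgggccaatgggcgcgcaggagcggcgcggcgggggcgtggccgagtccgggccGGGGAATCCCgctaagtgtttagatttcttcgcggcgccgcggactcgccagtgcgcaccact
Irf2: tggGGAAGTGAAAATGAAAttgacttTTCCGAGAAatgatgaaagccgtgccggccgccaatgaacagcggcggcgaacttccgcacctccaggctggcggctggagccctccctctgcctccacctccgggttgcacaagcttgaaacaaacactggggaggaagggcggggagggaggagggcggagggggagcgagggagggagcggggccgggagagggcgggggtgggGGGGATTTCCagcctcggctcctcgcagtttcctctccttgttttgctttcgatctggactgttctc
The Irf1 window held a GAS match from position -90 and an NF-kappaB match from position -13, counted from the start site. The Irf2 window held an ETS-IRF match from -247 that overlaps a response element match from -241, a GAS match from -224 and an NF-kappaB match from -17. Of 32851 mouse promoter windows of this length, 8.30% held the GAS pattern, 4.51% the NF-kappaB consensus, 3.44% the response element core, 2.72% the ETS-IRF composite, 16.8% the RUNX site and 13.6% the TATA box. These are letter matches, which do not show that a factor binds. A second Irf1 window, around another start site, held no match to the 6 patterns.

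Irf3 and Irf7 encode the factors that turn on type I interferon genes after viral nucleic acid is sensed, IRF3 being made constitutively and IRF7 being itself interferon-inducible. Irf3 (ENSMUSG00000003184, plus strand of chromosome 7, 44997648 to 45002848) stood at 89.5, 77.4 and 96.8 CPM in AML1/ETO libraries 1 to 3. The controls read 48.5, 35.7, 39.8, 51.1 and 51.3 CPM. The groups were well apart. The means of 87.9 ± 9.79 and 45.3 ± 7.14 CPM gave a log2 fold change of 0.96 (SE 0.19, edgeR adjusted p = 0.00327). Irf3 shares 2.56% of its exon bases with Bcl2l12 on the other strand.

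Irf7 (ENSMUSG00000025498, minus strand of chromosome 7, 141262706 to 141266481) was the scarcest member in controls per length. It had 243, 530 and 362 reads in the AML1/ETO libraries, or 18.4, 33.1 and 23.7 CPM. The controls had 234, 119, 325, 142 and 119 reads, or 13.7, 6.98, 17.9, 8.27 and 6.83 CPM. The lowest AML1/ETO library and the highest control nearly touched. The log2 fold change was 1.22 (SE 0.41), just past the threshold (edgeR adjusted p = 0.0481). The call was lost on leaving out AML1/ETO library 2 (adjusted p = 0.181) or 3 (0.0862) and control library 2 (0.0901), 4 (0.0871) or 5 (0.0827). It was also lost with libraries scaled by their totals alone (0.0772) and with no filter (0.0527), in a range over the alternatives from 0.00803 to 0.325. Irf7 shares 1.19% of its exon bases with Phrf1 on the other strand. Its window, chr7:141266375-141266674, is shown because IRF7 is the member that feeds back on the interferon response.
Irf7: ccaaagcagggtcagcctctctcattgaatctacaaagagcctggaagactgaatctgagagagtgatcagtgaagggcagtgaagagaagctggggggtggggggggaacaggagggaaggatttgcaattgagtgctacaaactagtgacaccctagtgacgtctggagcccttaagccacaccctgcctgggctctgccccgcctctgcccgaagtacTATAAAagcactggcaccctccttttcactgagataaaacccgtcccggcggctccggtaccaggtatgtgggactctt
It held a TATA box match from position -29 and none to the other 5 patterns. The window of Irf3 held no match.

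Irf5 (ENSMUSG00000029771, plus strand of chromosome 6, 29526625 to 29541871) encodes the factor that works downstream of Toll-like receptors in monocytes and B cells. It stood at 23.9, 13.9 and 18.4 CPM in AML1/ETO libraries 1 to 3, and at 47.1, 47.2, 52.3, 29.8 and 58.4 CPM in controls 1 to 5. All AML1/ETO libraries lay below the lowest control. It fell 2.50-fold (log2 fold change −1.33, SE 0.29, edgeR adjusted p = 0.00548). Irf5 shares 14.1% of its exon bases with Tnpo3 on the other strand. Tnpo3 stood at 99.3 against 120 CPM (log2 fold change −0.28, adjusted p = 0.192), and its part in the Irf5 value was not tested. The promoter window of Irf5 held no match to the 6 patterns.

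Irf4 and Irf8, the paralogous partners of PU.1, both fell. Irf4 (ENSMUSG00000021356, plus strand of chromosome 13, 30749226 to 30766976) was without reads in all 3 AML1/ETO libraries and had 979, 670, 455, 425 and 343 reads in controls 1 to 5. These control counts correspond to 57.3, 39.3, 25.0, 24.7 and 19.7 CPM, with a mean of 33.2 ± 15.3 CPM (SD, n = 5). Taking 3 reads per library as the floor that a count of 0 allows, or 0.187 to 0.227 CPM, Irf4 was at least 163-fold lower (edgeR adjusted p = 1.91e-05). The floor covers counting error only. Of 3392 tested genes with a control mean of 20 to 60 CPM, 20 (0.590%) were at 0 in all 3 AML1/ETO libraries, Irf4 among them.

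Irf8 (ENSMUSG00000041515, plus strand of chromosome 8, 120736358 to 120756694) kept a low level. It had 115, 334 and 124 reads in AML1/ETO libraries 1 to 3, or 8.71, 20.9 and 8.11 CPM. The controls had 920, 1159, 1756, 769 and 1951 reads, or 53.8, 68.0, 96.6, 44.8 and 112 CPM. The means were 12.6 ± 7.20 CPM (SD, n = 3) and 75.0 ± 28.5 CPM (SD, n = 5). The SD in CPM was larger in controls, but relative to its mean it was larger in AML1/ETO libraries. The lowest control stood above the highest AML1/ETO library. Irf8 fell 5.97-fold (log2 fold change −2.57, SE 0.42, edgeR adjusted p = 0.000945). Without AML1/ETO library 2 the log2 fold change was −3.16 (adjusted p = 0.000227).

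The control order of the pair was not shared. Irf4 was highest in control library 1 and lowest in library 5, whereas Irf8 was highest in library 5 and lowest in library 4. Spi1, which encodes PU.1, also fell, to 57.0 ± 8.07 from 346 ± 45.1 CPM (log2 fold change −2.60, SE 0.18, edgeR adjusted p = 2.10e-06). The ratio of Irf8 to Spi1 reads was 0.140, 0.341 and 0.170 in AML1/ETO cells and 0.129 to 0.359 in controls, so these ranges overlapped. The ratio of Irf8 to Irf1 reads was 0.0237 to 0.0475 against 0.412 to 0.851. These ranges had to separate, since Irf8 was lower and Irf1 higher in every AML1/ETO library, so the ratio adds no further result.

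The windows of Irf4 (chr13:30748983-30749282) and of the first Irf8 start site (chr8:120736108-120736407) are shown as those of the members that fell most, with the same marks.
Irf4: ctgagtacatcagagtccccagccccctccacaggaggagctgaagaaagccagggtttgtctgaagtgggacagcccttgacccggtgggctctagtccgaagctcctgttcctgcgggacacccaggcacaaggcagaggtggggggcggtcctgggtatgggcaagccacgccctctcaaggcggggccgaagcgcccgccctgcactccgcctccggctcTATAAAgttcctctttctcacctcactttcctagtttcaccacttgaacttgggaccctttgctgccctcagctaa
Irf8: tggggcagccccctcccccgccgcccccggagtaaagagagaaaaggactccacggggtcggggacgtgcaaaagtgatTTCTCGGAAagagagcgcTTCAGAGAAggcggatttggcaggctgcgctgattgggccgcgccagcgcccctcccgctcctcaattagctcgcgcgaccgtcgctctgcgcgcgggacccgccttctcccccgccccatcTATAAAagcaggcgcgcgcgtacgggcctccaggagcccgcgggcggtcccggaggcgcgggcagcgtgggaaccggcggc
Both held a TATA box match, from -26 in Irf4 and from -31 in Irf8. The Irf8 window also held GAS matches from -171 and -153, and the Irf4 window none. The windows differed in base make-up: Irf8 had 38 CpG dinucleotides and 70.0% GC, and Irf4 had 11 and 61.0%. The median over all windows was 7 CpG and 52.7% GC. The RUNX pattern was in none of the 11 windows of the 8 genes, which says only that these letters are not there.

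Irf9 (ENSMUSG00000002325, plus strand of chromosome 14, 55603571 to 55610030), the DNA-binding subunit of ISGF3, stood at 29.6, 73.0 and 72.8 CPM in AML1/ETO libraries 1 to 3. The controls read 76.4, 49.1, 52.1, 60.8 and 49.1 CPM. AML1/ETO library 1 lay below every control and the others within their range. The log2 fold change was 0.02 (SE 0.29, edgeR adjusted p = 0.971), and its sign turned under 4 alternatives. Stat2, which encodes an ISGF3 partner of IRF9, rose 3.64-fold to 82.7 ± 9.68 from 22.7 ± 9.78 CPM (log2 fold change 1.86, adjusted p = 0.00128). Irf9 shares 2.28% of its exon bases with Rnf31 on the same strand.

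Compared per kb of merged exons, Irf1 was the highest member in both groups, at 33.0 ± 5.30 CPM per kb in controls and 88.6 ± 20.6 CPM per kb in AML1/ETO cells, with every library of its group above any other member. In controls it was followed by Irf5 (16.2 CPM per kb), Irf3 (13.2), Irf9 (10.7), Irf8 (10.6), Irf4 (6.77), Irf2 (5.51) and Irf7 (2.84). Each neighbour from Irf5 to Irf2 in this order overlapped the next across control libraries, and Irf7 lay below all of them except for the lowest library of Irf4. In AML1/ETO cells the order was Irf1, Irf3 (25.5 CPM per kb), Irf9 (10.9), Irf2 (8.70), Irf7 (6.64), Irf5 (6.45), Irf8 (1.78) and Irf4 (0). Irf3 stood apart from its neighbours there, Irf9 to Irf5 overlapped, and Irf8 lay below them all. With the longest transcript as the length, the control order began Irf1, Irf3, Irf8 and Irf5.

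As a share of the summed length-scaled IRF level, Irf1 made up 59.3 ± 4.02% (SD, n = 3) in AML1/ETO libraries and 33.3 ± 2.61% (SD, n = 5) in controls. Irf4, Irf5 and Irf8 together, a trio formed after their falls were seen, made up 4.49% to 7.83% against 26.2% to 38.4%. The summed level was 121 to 173 CPM per kb in AML1/ETO libraries and 82.7 to 110 in controls. The shares of Irf2 overlapped, at 4.61% to 7.05% against 4.86% to 7.69%.

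**Figure D3:**
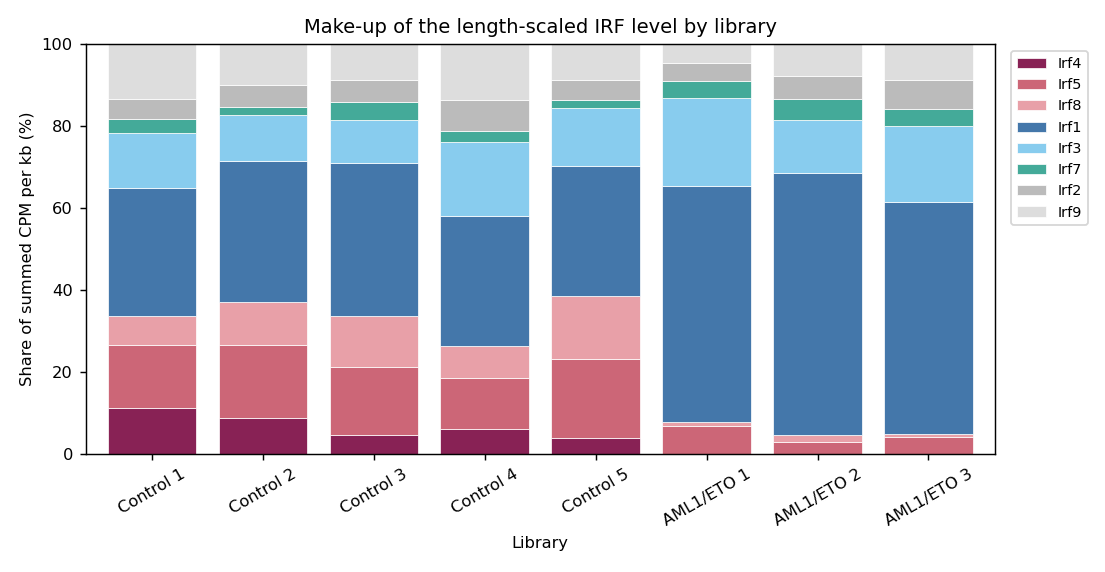
Share (%) of each member in the summed CPM per kb of the 8 IRF genes, by library. The red shades (Irf4, Irf5, Irf8) fill 26.2% to 38.4% of each control bar and 4.49% to 7.83% of each AML1/ETO bar, where Irf1 (dark blue) takes 56.5% to 63.9%.

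Profiles most like those of the 6 called members were sought among 10620 tested genes that averaged at least 5 CPM, by the root mean square difference of mean-centred log2 CPM over the 8 libraries. For Irf1 the nearest were Tmem201 (0.190), Ncoa7 (0.190) and Rinl (0.192). For Irf3 they were Pdk1 (0.119), Ogt (0.131) and Meis1 (0.157), and for Irf7 Hint2 (0.253), Ggct (0.255) and Gm12216 (0.269). For Irf5 they were Mex3b (0.181), Aspm (0.206) and Nol11 (0.216). For Irf8 they were Plac8 (0.285), Card9 (0.333) and Med6 (0.336). For Irf4 they were Galnt3 (0.268), Epha2 (0.300) and Chac1 (0.315), each of them, like Irf4, at 0 in every AML1/ETO library.

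Upstream of the IRFs, the interferon genes themselves were close to silent: of 10 ligand genes, none had a read in an AML1/ETO library, 3 had up to 15 reads in a single control, and none could be tested. Among 13 tested nucleic acid sensors and adaptors 3 rose and 1 fell (median log2 fold change 0.02). Over all tested genes 11.6% rose and 14.2% fell. Tlr7, the endosomal receptor for single-stranded RNA, rose 7.24-fold to 54.7 ± 12.1 CPM (log2 fold change 2.85, edgeR adjusted p = 6.80e-05). Tlr7 lies on X, and the groups differ in Xist; the part of that difference was not tested. Ddx58 (RIG-I, a sensor of viral RNA ends) rose 2.21-fold and Tmem173 (STING) 1.56-fold, and Mb21d1 (cGAS, the DNA sensor) fell 2.79-fold. Leaving out AML1/ETO library 2 or 3 ended the Tmem173 call (adjusted p = 0.0549 and 0.128). The Mb21d1 call was lost without AML1/ETO library 3 or without control library 1, 2, 4 or 5, at adjusted p from 0.0514 to 0.0791.

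Over all tested genes 11.6% rose and 14.2% fell. Of 14 kinase, ligase and other genes that carry sensor signals to the IRFs, 1 rose and 3 fell (median log2 fold change −0.15). The fallen genes were adaptors: Traf3, needed for IRF3 and IRF7 activation, fell 2.48-fold to 59.9 ± 14.1 CPM (adjusted p = 0.000894), Tank 2.24-fold and Traf6 2.14-fold. Irak4, the kinase below MyD88, rose 2.28-fold (adjusted p = 0.0108). The kinase genes Tbk1 and Ikbke, which phosphorylate IRF3 and IRF7, are on this list and were not called. Beside the same shares of all tested genes, 3 of 10 interferon receptor, JAK and STAT genes rose and 1 fell (median log2 fold change −0.25). Besides Stat2 these were Tyk2, the kinase of the type I receptor, up 2.21-fold (adjusted p = 0.00112), Il10rb, up 1.70-fold, and Ifnar1, a type I receptor chain, down 1.52-fold. The same omissions left Il10rb at adjusted p = 0.110 and 0.0519. The Ifnar1 call was lost without AML1/ETO library 1 or 2 or control library 2, 3, 4 or 5, at adjusted p from 0.0570 to 0.120.

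Among 11 partners and coregulators of IRFs 2 rose and 2 fell (median log2 fold change 0.06), against 11.6% and 14.2% of all tested genes. Etv6, an ETS repressor, rose 1.95-fold to 500 ± 72.2 CPM (adjusted p = 0.000496), and Irf2bp2, a corepressor bound by IRF2, rose 1.51-fold (adjusted p = 0.0438). Spib, a PU.1 relative, fell from a control mean of only 3.58 CPM to no reads, although control library 5 also had none. The Irf2bp2 call was lost without AML1/ETO library 2 or 3 or control library 1, 2, 3 or 4, at adjusted p from 0.0598 to 0.192. The Spib call was lost when any library but control 5 was left out, at adjusted p from 0.0517 to 0.0737. Beside the same shares, 3 of 12 negative regulators of interferon and NF-kappaB signals rose and 3 fell (median log2 fold change 0.46). Tnfaip3 (A20) rose 31.5-fold, Socs3 8.31-fold and Socs1 9.53-fold, and Cyld, a deubiquitinase, fell 1.76-fold. The call was lost for Socs1 without AML1/ETO library 3 (adjusted p = 0.0626) and for Cyld without control library 2 (0.0531).

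Among known target genes of the IRFs, against 25.7% of all tested genes called, 1 of 17 ISGF3 targets, 3 of 17 IRF1 and interferon gamma targets and 6 of 9 IRF4 and IRF8 targets were called. The ISGF3 targets had a median log2 fold change of −0.31, and the gene called was Ifitm3, a membrane protein that blocks viral entry, down 7.57-fold to 13.7 ± 4.43 from 104 ± 9.39 CPM (adjusted p = 8.39e-06). Isg15 stood at 23.6 against 7.76 CPM (adjusted p = 0.0728), Cmpk2 at 3.17 against 17.6 CPM (0.0793) and Oasl2 at 36.7 against 19.1 CPM (0.0833). Isg15 passed when AML1/ETO library 2 was left out (adjusted p = 0.0249) and Cmpk2 when library 1 was (0.0167). Of the IRF1 and interferon gamma targets 1 rose and 2 fell (median log2 fold change 0.01). Gbp4, a guanylate-binding protein, fell 35.3-fold to 0.480 CPM (adjusted p = 0.00871), a level that rests on 19 reads in AML1/ETO library 1 with 0 in the other libraries of the group. Its fitted log2 fold change of −5.17 ranged from −11.2 to −4.58 when 1 library was left out, lowest without AML1/ETO library 1. Gbp3 fell 2.29-fold and Gbp7 rose 1.88-fold. Gbp6 stood at 0.681 against 8.35 CPM (adjusted p = 0.0926) and passed when AML1/ETO library 1 was left out (0.000869). With DESeq2, Isg15, Cmpk2 and Gbp6 passed (adjusted p = 0.0415, 0.0255 and 0.0201). The Gbp7 call did not survive omission of AML1/ETO library 1 (adjusted p = 0.124) or of control library 3 (0.0588), nor that of Gbp3 omission of AML1/ETO library 2 or 3 or control library 1, 2, 3 or 5, at adjusted p from 0.0574 to 0.0970.

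Of 9 tested IRF4 and IRF8 targets 2 rose and 4 fell (median log2 fold change 0.03), against 11.6% and 14.2% of all tested genes. Cybb, the NADPH oxidase subunit that IRF8 and PU.1 activate, was at least 65.1-fold lower, without reads in AML1/ETO cells against 13.3 ± 5.99 CPM (adjusted p = 0.000195). Like Tlr7, Cybb lies on X, and the part of the Xist difference between the groups was not tested. Bcl6, the germinal centre repressor, fell 4.62-fold to 21.6 ± 9.51 CPM (adjusted p = 0.000365). Klf4, a monocyte factor that IRF8 induces, rose 5.51-fold to 412 ± 232 CPM (adjusted p = 0.000322), and Pml rose 1.81-fold (adjusted p = 0.00821). All lists were chosen with results of these data known, and their counts are descriptions.

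**Figure D4:**
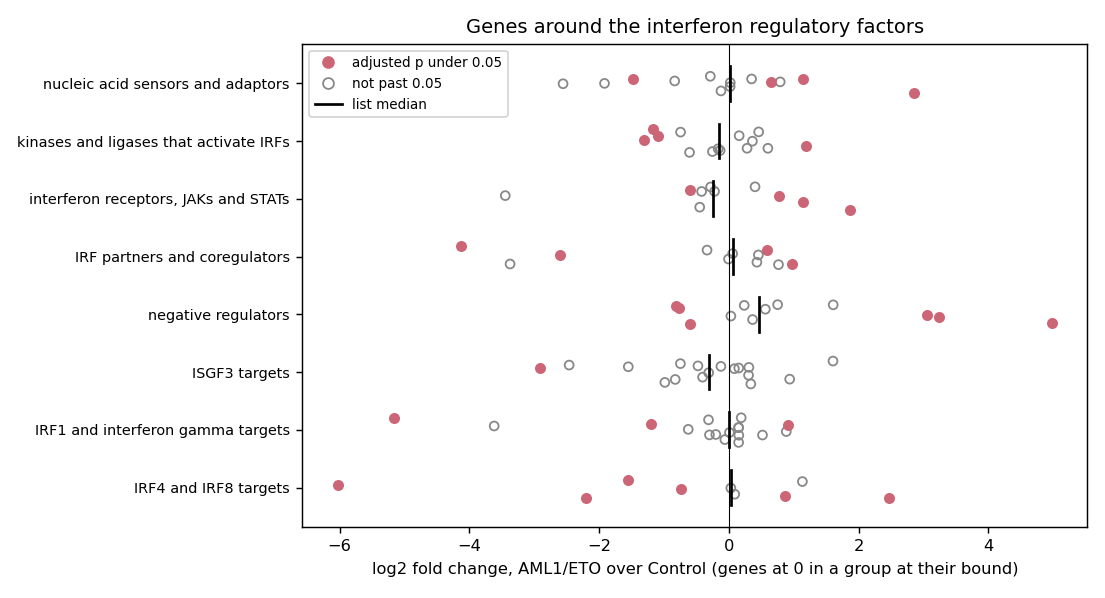
Log2 fold change (x axis; AML1/ETO over control, genes at 0 in a group at their bound) of tested genes in 8 lists around the IRFs; filled points have an adjusted p under 0.05 and bars are list medians, from −0.31 to 0.46. Every list but the ISGF3 targets holds called genes on both sides of 0.

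Beside Irf4, Irf5 and Irf8, the summed levels of several marker lists were lower without overlap. These were the B cell, monocyte, plasmacytoid dendritic, neutrophil, and T and NK cell markers. The sum of conventional dendritic markers overlapped between the groups, with called genes in both directions. Of 11 B and plasma cell markers 7 were at 0 in every AML1/ETO library, Ebf1 and Pax5 among them and Ms4a1 at 0 in the controls too. Ebf1 and Pax5 were also low in controls, at 4.05 and 3.38 CPM. Their edgeR calls were lost with the replicate number as a block (adjusted p = 0.121 and 0.154). The summed level of the list was 5.30 to 15.4 CPM against 23.6 to 96.9 CPM in controls. Of 8 monocyte and macrophage markers 4 fell and none rose, against 14.2% lower and 11.6% higher over all tested genes. Their sum was 41.7 to 60.5 against 168 to 362 CPM. Csf1r, the M-CSF receptor, fell to 1.23 from 41.3 CPM (adjusted p = 0.00150, 0.0999 with limma-voom), and Cx3cr1 had no read in AML1/ETO libraries. Plasmacytoid dendritic markers summed to 107 to 126 against 176 to 225 CPM, almost all of it Tcf4, which fell to 114 from 194 CPM (adjusted p = 0.00350). Of the 6 genes 4 were at 0 in every AML1/ETO library, but these were also near 0 in controls, Siglech at 0.606 CPM and Spib at 3.58 CPM. Conventional dendritic markers overlapped, at 217 to 309 against 178 to 278 CPM, with a median log2 fold change of −0.11. In that list Clec10a rose 26.2-fold to 134 from 5.12 CPM (adjusted p = 5.66e-05). It was the most abundant gene of the list in AML1/ETO cells by mean, so its rise carried much of their sum. The other called genes of the list fell: Itgax was at 0 in every AML1/ETO library against 6.94 CPM, and Cd74 stood at 13.3 against 83.1 CPM (adjusted p = 0.0494). Neutrophil markers summed to 172 to 1060 against 1156 to 2984 CPM. Of these 8 genes 4 fell and none rose, against 14.2% lower and 11.6% higher over all tested genes. Elane stood at 4.29 against 253.5 CPM (adjusted p = 0.00463), with AML1/ETO reads in library 2 only, and Ngp, Camp and Cxcr2 also fell. Mpo, the most abundant, stood at 567 against 1372 CPM (adjusted p = 0.0721, and 0.0131 without AML1/ETO library 2). Mast cell markers went the other way, 2473 to 6779 against 22.8 to 64.7 CPM, mostly through Cpa3. T and NK cell markers summed to 9.31 to 61.0 against 63.9 to 118 CPM. The control sum was nearly all Nkg7, which fell to 5.16 from 77.7 CPM (adjusted p = 4.46e-05), while Il7r stood at 27.5 against 1.72 CPM (adjusted p = 0.0791, and 0.0160 without AML1/ETO library 2, which had no read) and Cd3e, Cd3d, Cd3g and Gzma were at 0 in both groups. Erythroid markers summed to 17.2 to 96.9 against 18.8 to 73.2 CPM. Among stem cell markers 6 of 8 rose, against 11.6% of all tested genes, and 1 fell, against 14.2%. The gene that fell was Mecom, at 11.4 against 60.7 CPM (adjusted p = 0.00021). The part of these markers in the IRF values was not tested.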

How the data were processed

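The deposited values are raw read counts per Ensembl gene, 1 column for each of 3 AML1/ETO and 5 control libraries, not pooled. Alignment and counting tools named in the submitters' processing notes are HISAT2 2.0.5 and featureCounts 1.5.0-p3, with mm10 as the build; annotation, strand setting and treatment of multiply aligned reads are not given there or in the labels. Coordinates, exon lengths and overlaps came from GENCODE M21 on GRCm38, the assembly of mm10, and promoter windows from RefSeq on GRCm38.p6; all 8 genes matched. Counts were filtered with filterByExpr, scaled with TMM factors and tested with edgeR 4.0.16 in R 4.3.3 (glmQLFit, glmQLFTest, two-sided, Benjamini-Hochberg over 15009 genes, threshold 0.05) on all 8 libraries without covariates. Adjusted p-values are edgeR's unless another tool is named. SEs were derived from the F statistic. The common biological coefficient of variation was 72.6%. The procedure was tested on simulated counts. Alternatives used DESeq2 1.42.0, limma-voom (limma 3.58.1), other scalings, filters and left-out libraries, a 2-fold minimum and a replicate block. The naming rule took all members, up to 4 genes per list by smallest p, and 3 most alike genes per called member. Tnpo3, Xist, Ddx3y, Tbk1, Ikbke, Siglech, Mpo and other genes outside it were chosen after their values were seen. The members and lists were chosen with earlier results of these data known.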

Additional observations from a re-analysis of the deposited data

Results flagged for a closer look

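None of the 8 interferon regulatory factors had a control library that stood far from the other 4. Among all 55 genes examined, 4 did, and chance alone flags about 1 in 20 groups. Tyk2 was at 82.9 CPM in control library 1, far above the other controls. Socs3 was at 163 CPM in control library 3. Both remained below the lowest AML1/ETO library. Clec10a was at 10.1 CPM in control library 1, also below the lowest AML1/ETO library. Nkg7 was at 114 CPM in control library 3, on the side away from the AML1/ETO libraries.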

How the results depend on the processing

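The calls of Irf1, Irf3, Irf4, Irf5 and Irf8 held under all 18 alternatives other than a 2-fold minimum, with log2 fold changes from 1.23 to 1.57 for Irf1, 0.805 to 1.09 for Irf3, −1.54 to −1.16 for Irf5 and −3.16 to −2.35 for Irf8. Irf7 was called in 10 of 18 and Irf2 in 7 of 18, DESeq2 and limma-voom among them for both. With the 2-fold minimum 0 members were called higher and 2 lower (Irf4 and Irf8), and over all genes 521 were higher and 568 lower, against 1734 and 2128 without it. Scaling by library totals alone moved the median over all genes by −0.146 (log2) and lowered the share of higher calls from 44.9% to 34.2%. Irf9 then stood at −0.111, and between −0.173 and 0.336 when 1 library was left out. Replicate numbers did not pair the libraries: same-numbered deviations correlated at −0.0390 to 0.0388, and 1 of 3 numbers matched its own best. With the replicate number as a block 951 genes were higher and 1098 lower, Irf9 stood at −0.083, and Irf7 was not called (adjusted p = 0.325). Among other genes, Tmem173, Mb21d1, Il10rb, Ifnar1, Irf2bp2, Spib, Socs1, Gbp3 and Gbp7 were called in 8 to 16 of 18 alternatives. The causes were not tested. Depth limits Irf4 to a floor of 3 reads per AML1/ETO library.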

Other observations

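The ratio of Irf3 to Irf5 reads ran from 3.74 to 5.56 in AML1/ETO cells and from 0.756 to 1.71 in controls. Its separation was fixed by Irf3 being higher and Irf5 lower in every AML1/ETO library. The ratio of Irf7 to Irf9 reads overlapped between the groups, at 0.325 to 0.621 against 0.136 to 0.343.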
